A study of Mus musculus with 8 samples.

Results

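The genes examined here were 54 genes of Wnt signalling: ligands, receptors, R-spondin receptors with their ubiquitin ligases, secreted inhibitors, cytoplasmic and nuclear components, and common target genes. They were taken from a list of symbols, and an array probe was counted as a member when its RefSeq accession mapped to a listed symbol or synonym. All 54 genes were found, on 66 probes, and 51 of them passed the filter on dim probes and were tested among 16377 named genes.

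Gene expression was measured on 8 one-colour mouse arrays of tumours grown from 4T1, a BALB/c mammary carcinoma cell line. Before injection, the cells of the 4 PRH-labelled tumours had been infected in culture with an adenovirus carrying PRH, the homeodomain protein of the gene Hhex, and those of the 4 control tumours with an adenovirus that was empty. All cells were exposed to virus for 24 h at a multiplicity of infection of 50, then placed in the no. 3 fat pad of female BALB/c mice aged 6 to 8 weeks, and the tumours of both groups were collected on day 22. Each group holds mouse numbers 1, 2, 3 and 5, and the labels differ on the material, naming whole tumours in one place and isolates of endothelium in another. The infection preceded injection, adenoviral DNA is as a rule not copied into the genome of the host cell, and a tumour of this kind also holds host cells, so an array reads carcinoma and host RNA together.

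Every tested marker of endothelium (9 of 9), mammary carcinoma epithelium (8 of 8), fibroblasts (9 of 9), macrophages (5 of 5) and T cells (6 of 6) was well above background on all 8 arrays. Hhex itself, measured by 1 probe, was lower in PRH-labelled tumours (-1.67 ± 0.14) than in control tumours (-0.58 ± 0.20, SD, n = 4 each; log2 difference -1.09, adjusted p = 0.00686 with limma), so the groups are called by their labels, and a direction is given as the label has it. Whether the labels are exchanged, which would turn every direction given here, or whether this probe misses the transcript of the vector was not tested. All PRH arrays lay in slide column 1 and all control arrays in slide column 2 of 1 slide, so column and group cannot be told apart. The 75th percentile of the signal averaged 722.4 ± 41.2 on PRH arrays and 1094 ± 131 on control arrays (SD, n = 4 each, exact permutation p = 0.0286, the smallest that 4 arrays against 4 can give). Of 34543 tested items, 25.9% were called at an adjusted p under 0.05, 17.2% with higher and 8.67% with lower signal in the PRH-labelled group, and the median difference over all items was 0.29 on the log2 scale.

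Wnt proteins are secreted ligands that bind Frizzled receptors, alone or with the coreceptors Lrp5 and Lrp6. In the β-catenin branch, binding recruits Dishevelled proteins, the complex of Axin and Apc no longer marks β-catenin for degradation, and β-catenin then acts with Tcf and Lef factors on target genes. Secreted inhibitors block the ligands or the coreceptors, the ligases Rnf43 and Znrf3 remove Frizzled receptors from the cell surface, and R-spondins acting through Lgr receptors hold those ligases back. The pathway directs mammary duct growth and stem cell renewal, and Wnt1 was found as a gene activated by a virus that causes mouse mammary tumours.

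A few named members separated PRH-labelled from control tumours, and most did not pass the test. Wnt11, Fzd5, Dkk1, Axin2 and Tcf7l2 had higher levels in PRH-labelled tumours, and Fzd1 and Lgr5 had lower ones (adjusted p under 0.05 with limma, over all tested items). That is 5 members higher of 51 tested, beside a background of 17.2% of all items and 10.6% of named genes. It is 2 lower, beside 8.67% of all items and 12.9% of named genes, and 7 in all, beside 25.9% and 23.4%. The 44 other tested members were not called. Among the called members, Dkk1 passed the filter on dim probes through the PRH arrays alone. Axin2 also met it by its 4 PRH arrays, with only 1 control array well above background. Levels of PRH and control arrays did not overlap for 6 members, Wnt11, Fzd1, Fzd5, Rnf43, Dkk1 and Tcf7l2, beside 31.4% of all items. At an unadjusted p under 0.05 with limma there were 17 members, beside 13438 of 34543 items and 6231 of 16377 named genes. Of the 51 differences, 25 were positive and 26 negative, with a median of -0.05, against a median of 0.29 over all items and -0.02 over named genes. In tissue RNA of this kind, fewer cells of a type and less RNA per cell cannot be told apart.

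**Figure D1:**
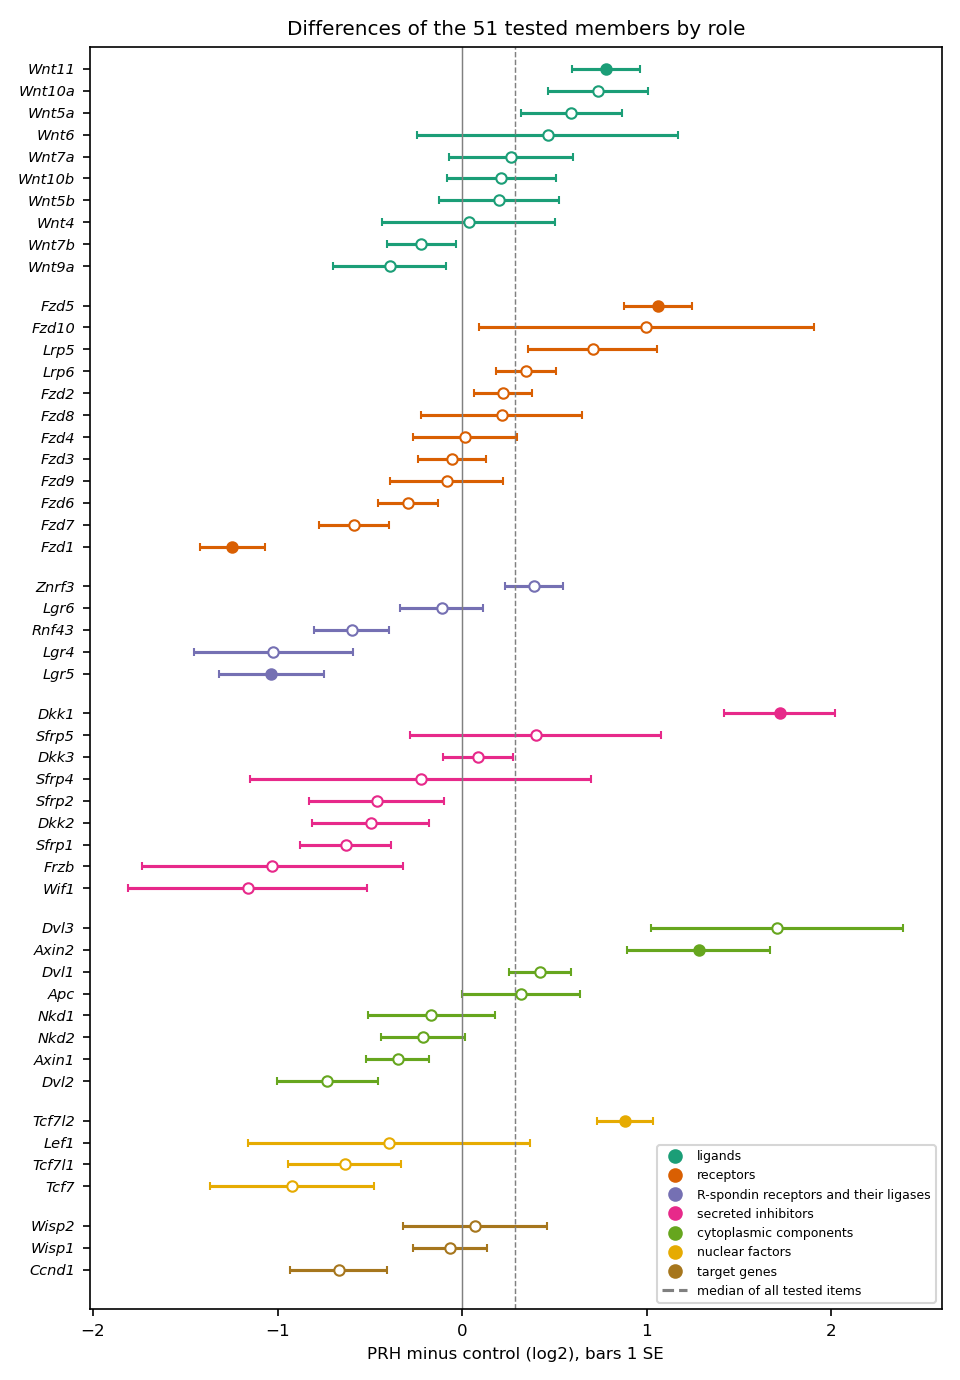
Difference between PRH and control tumours (log2, x axis, bars 1 SE) for the 51 tested members, grouped by role. Filled points are the 7 members called at an adjusted p under 0.05, and the dashed line marks the median of all tested items, 0.29. Dkk1 (1.72) lies at the right end and Fzd1 (-1.25) at the left end.

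Levels are given as log2 of the processed signal relative to the 75th percentile of the same array, so that 0 is that percentile, and array values run in the order of mice 1, 2, 3 and 5. Other ways of scaling the arrays changed several of these calls. The 6 scalings compared were the 75th percentile, median centring, quantile normalization, normexp background correction with quantile normalization, the authors' deposited values and cyclic loess. Fzd5 was called higher, and Fzd1 and Lgr5 lower, under each of them, and the calls of the other 4 members depended on the scaling as given with each. Centring on the spike-in control RNAs, kept apart from these 6, called 0 members and only 1 of all items.

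Stretches before a transcript start given by RefSeq are shown for the 3 called members with a motif match there. Such a start need not be the first one of its gene. The motif is a short form of the one bound by Tcf and Lef factors. It was searched since the same factors, the inhibitor Dkk1 and the ligand Wnt11 are members here. The motif searched was CTTTGAT or CTTTGTT on both strands, in windows of 250 bases before each start, in RefSeq sequences of build GRCm38.p6. Capitals mark the match. Wnt11 is shown at chr7:98834862-98835111 on the plus strand, Dkk1 at chr19:30549497-30549746 on the minus strand, and Tcf7l2 at chr19:55895071-55895320 on the plus strand.
Wnt11: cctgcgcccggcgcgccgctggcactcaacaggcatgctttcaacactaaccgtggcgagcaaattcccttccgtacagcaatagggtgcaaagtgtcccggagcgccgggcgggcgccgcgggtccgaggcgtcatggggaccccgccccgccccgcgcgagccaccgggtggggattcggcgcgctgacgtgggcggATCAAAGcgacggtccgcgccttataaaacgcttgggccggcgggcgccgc
Dkk1: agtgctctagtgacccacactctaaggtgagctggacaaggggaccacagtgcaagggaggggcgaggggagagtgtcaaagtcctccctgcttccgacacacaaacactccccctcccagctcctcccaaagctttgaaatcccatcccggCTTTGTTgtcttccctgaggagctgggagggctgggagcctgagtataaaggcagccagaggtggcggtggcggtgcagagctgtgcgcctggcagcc
Tcf7l2: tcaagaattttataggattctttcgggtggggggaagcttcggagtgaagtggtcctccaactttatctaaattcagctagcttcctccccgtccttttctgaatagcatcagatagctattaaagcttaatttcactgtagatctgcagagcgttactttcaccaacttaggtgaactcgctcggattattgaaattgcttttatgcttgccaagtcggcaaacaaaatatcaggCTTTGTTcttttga
Between the match and the start lie 44 bases in Wnt11, 91 in Dkk1 and 7 in Tcf7l2, and RefSeq gives Wnt11 and Tcf7l2 a further start whose window holds no match. Such a match was present in 2648 of 32851 windows (8.06%) and in 6 of the 44 windows of 35 members. Counted by gene, 6 of 35 members with a window held a match, among them 3 of the 6 called ones. The 8.06% counts windows, and a gene may have several, so it is not a background for these counts of genes. The form of the motif was chosen after other forms had been searched. The other matches were in Wnt5b, Fzd7 and Sp5. A match describes letters in a window and shows no binding.

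Among the ligands, Wnt11 rose in PRH-labelled tumours. It is a ligand known mainly for signalling without β-catenin during cell movements of the vertebrate embryo. Wnt11 measured -0.33, -0.44, -0.14 and -0.28 in PRH-labelled tumours, against -0.91, -0.84, -1.54 and -1.03 in control tumours. Every PRH array lay above every control array. The difference was 0.78 (SE 0.18, 1.72-fold, adjusted p = 0.0193). The call was lost with median centring (adjusted p = 0.266), with normexp background correction (0.0881) and on the authors' values (0.086), and without PRH 3 (0.0502) or PRH 5 (0.0526).

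Of 10 ligands tested, Wnt11 alone was called at the adjusted threshold. Wnt10a, a ligand that acts through β-catenin in skin and teeth, measured 2.01, 2.28, 2.88 and 2.23 in PRH-labelled tumours, against 1.38, 2.03, 1.13 and 1.91 in control tumours. Its groups overlapped only at PRH 1 and control 2, and the difference of 0.74 did not pass (SE 0.27, adjusted p = 0.0857). Wnt5a, the main ligand of the branch that acts without β-catenin, measured 0.76, 0.74, 1.37 and 0.87 in PRH-labelled tumours, against 0.28, 0.26, -0.17 and 1.00 in control tumours, with control 5 above 3 of the PRH arrays (difference 0.59, adjusted p = 0.149). The differences of the remaining 7, Wnt4, Wnt5b, Wnt6, Wnt7a, Wnt7b, Wnt9a and Wnt10b, ran from -0.39 for Wnt9a to 0.46 for Wnt6. The median over the 10 was 0.24, with 8 positive, and it was -0.23 with 3 positive under median centring. Wnt2, needed for vessel growth of the mouse placenta, was not well above background on any of the 8 arrays, and Wnt3, a ligand that helps to start gastrulation, was so on 1 array of each group. Neither was tested.

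**Figure D2:**
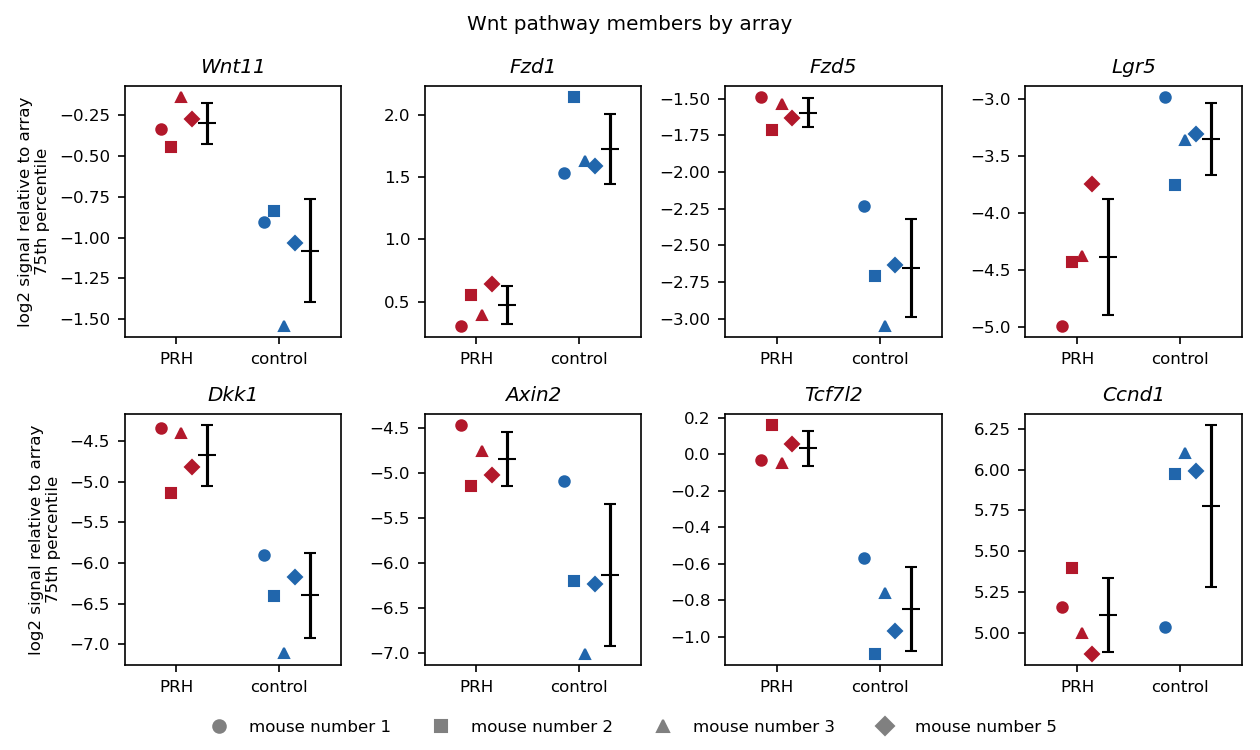
Level (log2 signal relative to the 75th percentile of the array, y axis) of the 7 called members and of Ccnd1 in 4 PRH tumours (red, left) and 4 control tumours (blue, right). Symbols give the mouse number, and horizontal marks with bars give mean ± SD. The groups share no level for Wnt11, Fzd1, Fzd5, Dkk1 and Tcf7l2, while for Ccnd1 control 1 (5.04) lies among the PRH arrays and apart from the other control arrays.

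Among the receptors, 2 Frizzled genes passed the test, with opposite signs. Frizzled proteins are the seven-pass receptors that bind Wnt ligands directly. Fzd1 measured 0.31, 0.56, 0.40 and 0.64 in PRH-labelled tumours, against 1.53, 2.14, 1.63 and 1.59 in control tumours. All control arrays lay above all PRH arrays, with control 2 the highest. The difference was -1.25 (SE 0.17, 2.37-fold lower, adjusted p = 0.00686), it lay between -1.71 and -1.13 under the 6 scalings, and it was called in each of 8 fits that left out 1 array.

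Fzd5, a receptor needed for vessel formation in the mouse yolk sac, was higher in PRH-labelled tumours. Its brightest probe measured -1.49, -1.72, -1.54 and -1.64 in PRH-labelled tumours, against -2.24, -2.71, -3.05 and -2.64 in control tumours. The groups did not overlap, and the difference was 1.06 (SE 0.19, 2.09-fold, adjusted p = 0.00851). It kept its sign and its call under all 6 scalings (0.46 to 1.06) and in all 8 fits without 1 array. A second probe of Fzd5 showed a difference of -0.06 (adjusted p = 0.834), and the mean of both probes, at 0.50, did not pass (adjusted p = 0.0841).

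The coreceptors Lrp5 and Lrp6, single-pass proteins that join Frizzled to form the active receptor, both had positive differences on this scaling. Lrp5 measured 2.36, 3.31, 2.41 and 3.46 in PRH-labelled tumours, against 1.96, 2.44, 1.61 and 2.69 in control tumours. The groups overlapped, yet within every mouse number the PRH array was the higher one, by 0.40, 0.86, 0.80 and 0.77. Lrp5 was not called (0.71, SE 0.35, adjusted p = 0.176), while a fit blocked on mouse number called it (SE 0.15, adjusted p = 0.0214). Lrp6 had a difference of 0.35 (adjusted p = 0.159), and its sign changed under another scaling.

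The other 8 Frizzled genes were not called. Fzd7, a receptor linked to epithelial stem cells, had a difference of -0.59 on its brightest probe (adjusted p = 0.0566) and of 0.71 on its second (adjusted p = 0.0298). Fzd2 likewise had 0.22 on its brightest probe and -1.31 on its second (adjusted p = 0.189), so neither gene has a settled direction. Fzd3, Fzd4, Fzd6, Fzd8 and Fzd9 lay between -0.29 and 0.21. Fzd10 was well above background on 3 PRH arrays and 2 control arrays and had a difference of 1.00 with an SE of 0.91. The median over 12 receptors was 0.11, and it was -0.35 under median centring.

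**Figure D3:**
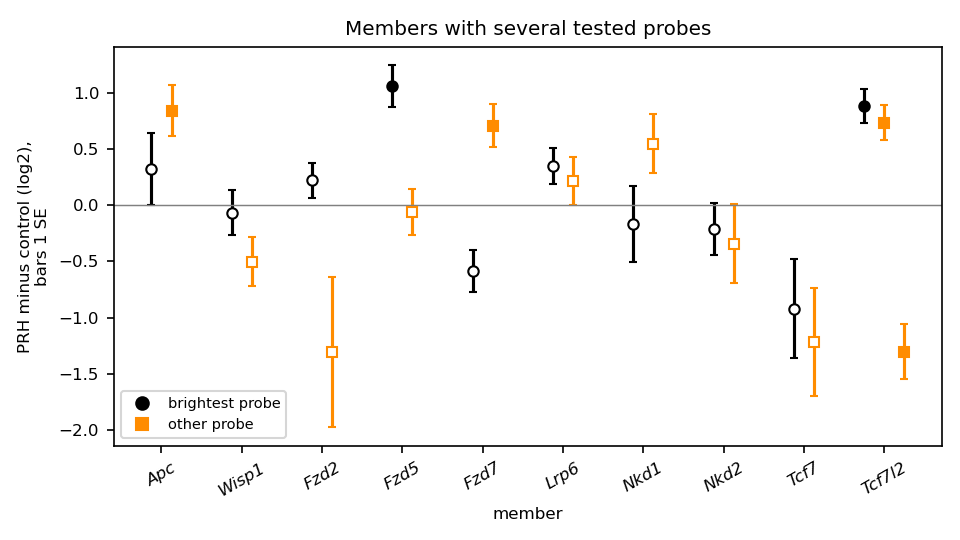
Difference between PRH and control tumours (log2, y axis, bars 1 SE) for each tested probe of the 10 members with several probes. Black circles are the brightest probe, orange squares the others, and filled symbols passed an adjusted p of 0.05. For 5 members, Fzd2, Fzd5, Fzd7, Nkd1 and Tcf7l2, the probes fell on both sides of 0.

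Of the 5 R-spondin receptors and ligases, Lgr5 was lower in PRH-labelled tumours and the other 4 were not called. Lgr5 is an R-spondin receptor and a Wnt target that marks stem cells of the mouse intestine. It measured -4.99, -4.43, -4.38 and -3.75 in PRH-labelled tumours, against -2.99, -3.76, -3.36 and -3.31 in control tumours. The groups touched at PRH 5 and control 2, which differed by less than either group's SD. The difference was -1.03 (SE 0.28, 2.05-fold lower, adjusted p = 0.0335) and the call held under all 6 scalings (-1.57 to -0.61). It was lost in 6 of the 8 fits without 1 array, namely without control 1, 3 or 5 or PRH 1, 2 or 3, with adjusted p between 0.0602 and 0.0803. With all items split into 10 equal classes by mean signal, the class that holds Lgr5 had a median difference of 0.69.

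Lgr4 and Rnf43 were not called here but were called lower under each of the 5 other scalings. Lgr4, a second R-spondin receptor with wider expression, measured -6.29, -5.73, -4.96 and -5.14 in PRH-labelled tumours, against -4.81, -3.72, -5.36 and -4.15 in control tumours, with 2 PRH arrays not well above background and control 3 among the PRH arrays (-1.02, SE 0.43, adjusted p = 0.12). Rnf43, a membrane ligase that removes Frizzled, measured -2.60, -2.42, -2.79 and -2.57 in PRH-labelled tumours, against -1.79, -1.61, -2.16 and -2.41 in control tumours. Every control array lay above every PRH array, with PRH 2 and control 5 nearly level. The difference of -0.60 (SE 0.20) had an adjusted p of 0.0636, and of 0.0462 once mouse number was a block. Znrf3, the related ligase, had a difference of 0.39 (adjusted p = 0.107) whose sign turned under other scalings, and Lgr6 had -0.11. The median of the 5 was -0.60, and it lay between -1.06 and -0.54 over the 6 scalings.

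Dkk1 was the only called member among the secreted inhibitors, and 6 of the other 8 had negative differences on this scaling. Dkk1 binds Lrp5 and Lrp6 and is itself a target of the pathway. It measured -4.35, -5.14, -4.41 and -4.83 in PRH-labelled tumours, against -5.90, -6.41, -7.11 and -6.18 in control tumours. The probe was well above background on all 4 PRH arrays and on no control array. It thus passed the filter on dim probes through the PRH arrays alone, so its call is not independent of that filter. The control level is therefore not a measured one. The fitted difference was 1.72 (SE 0.30, adjusted p = 0.00852 with limma). With dim control levels raised, Dkk1 was 2.72-fold higher in PRH-labelled tumours on this scaling. For the 2.72-fold value, each control array took the probe's own signal or that of the dimmest probe that cleared background there, whichever was higher. The PRH mean was set against the mean of these levels. The 2.72-fold value is not a minimum, since every other scaling compared gave a smaller difference, down to 0.20 with normexp background correction.

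Dkk1 lay in the dimmest of the 10 brightness classes, whose median difference was 0.91 and of which 21.4% were called higher. Its difference was 1.26 under median centring, 1.06 with quantile normalization and 1.25 with cyclic loess, each called. It was 0.20 with normexp background correction (adjusted p = 0.125) and 0.31 on the authors' values (adjusted p = 0.0677), neither called. All 8 fits without 1 array kept the call.

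No inhibitor that binds Wnt ligands directly was called. Sfrp1, of the secreted Frizzled-related family, measured 0.17, -0.12, -0.53 and -0.26 in PRH-labelled tumours, against -0.02, 0.77, 0.81 and 0.22 in control tumours, a difference of -0.63 that did not pass (adjusted p = 0.0984). Wif1, a Wnt-binding inhibitor, had -1.16 (SE 0.65, adjusted p = 0.225), and Frzb, also known as Sfrp3, had -1.03 (SE 0.71, adjusted p = 0.314). For Frzb the 4 PRH arrays lay between -4.85 and -4.41, while control tumours spread from -5.19 to -1.79. Dkk2 (-0.49), Sfrp2 (-0.46), Sfrp4 (-0.22), Dkk3 (0.09) and Sfrp5 (0.40) had adjusted p between 0.286 and 0.868. The median of the 9 inhibitors was -0.46 and lay between -0.93 and -0.41 under the 6 scalings.

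In the cytoplasm, Axin2 was the called member, on a probe well above background on 4 PRH arrays and 1 control array. The 4 PRH arrays by themselves met the filter on dim probes, so the call of Axin2 is not independent of that filter. Axin2 is a scaffold of the complex that degrades β-catenin, and its transcript is a common readout of β-catenin signalling. It measured -4.47, -5.14, -4.76 and -5.02 in PRH-labelled tumours, against -5.09, -6.20, -7.00 and -6.23 in control tumours. Control 1, the only control array on which the probe was well above background, lay above PRH 2, and the other control arrays lay below all PRH arrays. The difference was 1.28 (SE 0.39, adjusted p = 0.0451), against a control level that was measured on 1 of 4 arrays only, and in the same dimmest class of items as Dkk1. Under each of the 5 other scalings it was not called, with values from 0.12 to 0.82 and adjusted p from 0.102 to 0.388. It was called in 1 of 8 fits without 1 array, the one without control 1, and the other 7 gave adjusted p between 0.0721 and 0.111. A second probe of Axin2 cleared background on none of the 8 arrays.

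Dvl3, a Dishevelled protein that relays the signal from Frizzled, had a large difference with a wide spread. It measured 2.55, 0.68, 3.25 and 1.99 in PRH-labelled tumours, against 1.06, -0.48, 1.59 and -0.53 in control tumours. The groups overlapped, and within every mouse number the PRH array was higher, by 1.49, 1.16, 1.67 and 2.52. The difference of 1.71 was not called (SE 0.68, adjusted p = 0.107) but was called once mouse number was a block (SE 0.25, adjusted p = 0.0107). The mean level of the spike-in control RNAs moved with it between arrays, at 2.64, 1.96, 2.62 and 2.73 on PRH arrays and 2.58, 1.93, 2.87 and 2.04 on control arrays, and its part in the result was not tested.

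The remaining cytoplasmic members were not called. Dvl1 had a difference of 0.42 and Dvl2 of -0.73 (adjusted p = 0.106 and 0.0877), although both code for Dishevelled proteins as well. The sign for Dvl1 turned to -0.04 under median centring. Dvl1 was called higher with normexp (0.54, adjusted p = 0.0339 with limma) and on the authors' values (0.54, 0.0392). Dvl2 was called lower with median centring (adjusted p = 0.0329) and normexp (0.0494). Axin1 and Nkd2 were called lower with median centring alone (adjusted p = 0.0301 and 0.0491). Apc, a tumour suppressor of the degradation complex, had 0.32 on its brightest probe and 0.84 on its second, which passed on its own (adjusted p = 0.0313). Axin1 (-0.35), Nkd1 (-0.17) and Nkd2 (-0.21), the last 2 of which bind Dishevelled and restrain signalling, had adjusted p between 0.176 and 0.731. In the blocked fit, 7 members were called higher and 3 lower, beside backgrounds of 26.9% and 8.54% of all items and 15.0% and 12.4% of named genes, the additions being Lrp5, Dvl3 and Rnf43.

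Among the nuclear factors, Tcf7l2 rose on its brightest probe. Tcf7l2 is the DNA-binding partner through which β-catenin acts in gut and liver. It measured -0.03, 0.16, -0.05 and 0.05 in PRH-labelled tumours, against -0.57, -1.09, -0.76 and -0.97 in control tumours. The groups did not overlap, and PRH arrays were closer together than control arrays. The difference was 0.88 (SE 0.15, 1.84-fold, adjusted p = 0.00823), called in all 8 fits without 1 array and under 5 of 6 scalings, the exception being median centring (0.42, adjusted p = 0.0706).

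The other probes of Tcf7l2 fell on both sides of 0. A second one had a difference of 0.73 (adjusted p = 0.0137). The third measured -5.00, -5.08, -4.69 and -4.59 in PRH-labelled tumours, against -4.14, -3.47, -3.50 and -3.05 in control tumours, lower on every PRH array (-1.30, adjusted p = 0.0101). The mean of all its probes gave 0.10 (adjusted p = 0.572). These probes were designed on different RefSeq transcripts of the gene, and which transcripts each one detects was not tested.

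Lef1 and Tcf7, Tcf factors that are also made by lymphocytes, spread widely among control tumours. Lef1 measured -1.51, -0.95, -1.51 and -1.70 in PRH-labelled tumours, against 1.12, -0.51, -2.55 and -2.15 in control tumours. Tcf7 measured -2.11, -1.61, -1.91 and -1.72 in PRH-labelled tumours, against 0.35, -0.74, -1.77 and -1.51 in control tumours. Control 1 was the highest array for both and control 2 the next. For Tcf7, 3 of 4 control arrays lay above every PRH array, and the PRH array was the lower one within every mouse number. Neither was called (-0.40, adjusted p = 0.713 for Lef1, and -0.92, adjusted p = 0.169 for Tcf7).

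Control 1 was also the highest array in the means of several marker lists. The mean of 3 tested B cell markers of 4 listed was -3.14 to -2.96 on PRH arrays and -4.01 to -3.25 on control arrays 2, 3 and 5, against 2.22 on control 1. The mean of 6 T cell markers was 0.70 to 1.09 on PRH arrays and 0.49 to 0.96 on control arrays 2, 3 and 5, against 1.71 on control 1. For 3 of the 6 T cell genes, Cd3e, Cd4 and Cd8a, another array was higher. Control 1 was highest in adipocyte markers too (1.75, against -4.26 to -1.10 on the 7 other arrays), and in neutrophil markers (3.73, against 0.001 to 2.53). All 6 T cell markers were well above background on every array, and the part of these cells in the Lef1 and Tcf7 levels was not tested. Tcf7l1, the Tcf factor known mainly as a repressor, had a difference of -0.64 (adjusted p = 0.168).

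**Figure D4:**
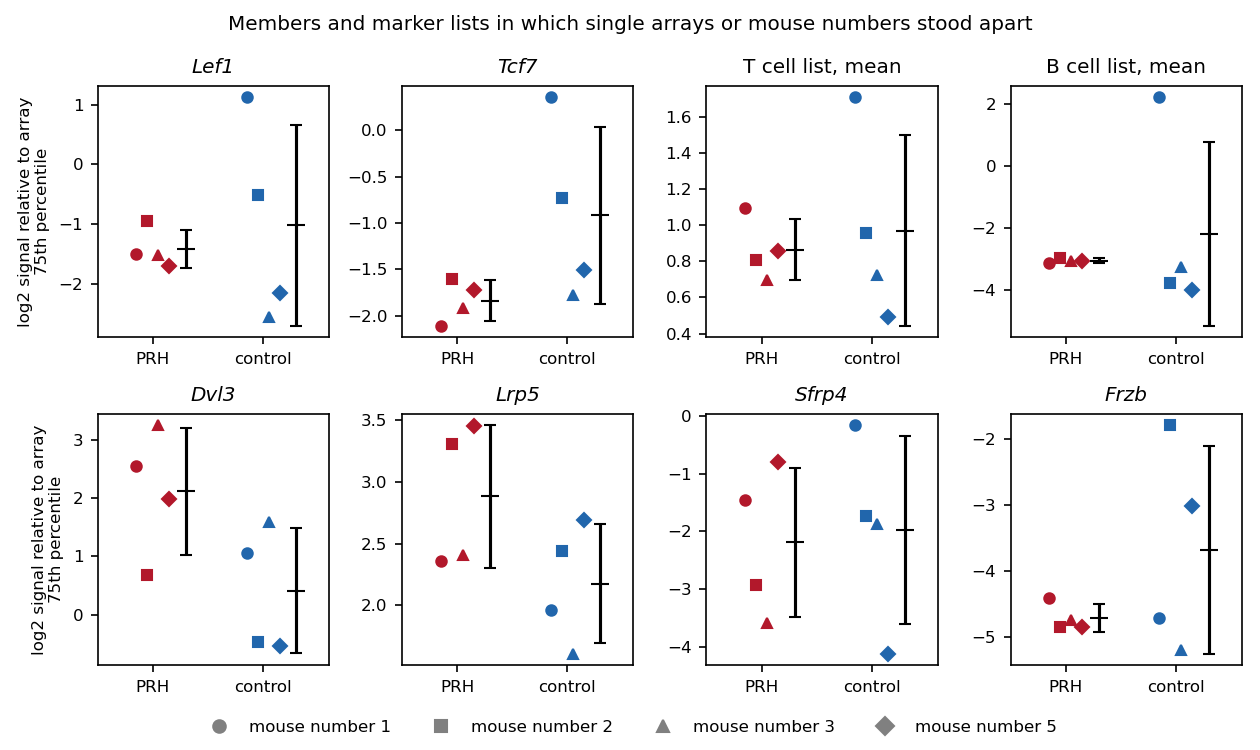
Level (log2 signal relative to the 75th percentile of the array, y axis) of 6 members and the mean of 2 marker lists in 4 PRH tumours (red, left) and 4 control tumours (blue, right), with mean ± SD. Control 1 is the highest array for Lef1, Tcf7 and both lymphocyte lists, while Dvl3 and Lrp5 are higher in PRH within every mouse number. Frzb spreads widely in control tumours, and Sfrp4 in both groups.

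None of the 3 tested members grouped here as target genes was called. Dkk1, Lgr5 and Axin2, described in other groups above as targets or readouts of the pathway, were called, Lgr5 lower and the others higher. The calls of Dkk1 and Axin2 are not independent of the filter on dim probes. Members of those groups were not sorted by whether they are targets, so these calls give no share of targets. Nkd1, Rnf43, Znrf3, Lef1 and Tcf7, among others in those groups, were not called on this scaling. Ccnd1, cyclin D1, which drives entry into the cell cycle, measured 5.16, 5.40, 5.00 and 4.87 in PRH-labelled tumours, against 5.04, 5.97, 6.10 and 5.99 in control tumours. Control arrays 2, 3 and 5 lay above all PRH arrays, and control 1 lay among them. The difference was -0.67 (SE 0.26, 1.59-fold lower, adjusted p = 0.101), and without control 1 it was -0.91 (adjusted p = 0.00543). Under each of the 5 other scalings Ccnd1 was called lower (-1.13 to -0.69, adjusted p 0.0287 to 0.0496). Wisp1 and Wisp2, matricellular proteins now named Ccn4 and Ccn5, had differences of -0.07 and 0.07. Sp5, a transcription factor induced by β-catenin, cleared background on none of the 8 arrays.

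Cell type markers were read beside these groups. None of 11 lists passed an adjusted p of 0.05 in an exact two-sided permutation test, and none passed it unadjusted, the smallest p being 0.0571 for macrophages. With 4 arrays against 4, at least 7 of the 11 lists would need the smallest possible p of 0.0286 for any to pass after adjustment, so the adjusted result says little. Fibroblast markers, which come from a cell type that makes secreted Wnt inhibitors, averaged 3.66 to 4.04 on PRH arrays and 3.88 to 4.37 on control arrays. Of these, 2 of 9, Pdgfra and Pdgfrb, were called lower, while Col1a1 (0.075), Col1a2 (0.21) and Thy1 (0.29) had positive differences and were not called. Carcinoma epithelium markers averaged 4.35 to 4.83 on PRH arrays and 3.58 to 4.57 on control arrays. Krt18 was called higher, while Krt8 had a difference of -0.44 and was not called. Endothelial markers averaged 0.88 to 1.19 on PRH arrays and -0.09 to 1.40 on control arrays. Kdr was called higher, while Tek (-0.52), Tie1 (-0.086) and Cdh5 (-0.066) had negative differences and were not called. The largest list difference was that of keratinocyte markers, at -3.40 to 0.26 on PRH arrays and -4.97 to -0.06 on control arrays, with none called. Myoepithelial and basal markers averaged 0.90 to 2.42 on PRH arrays and 0.28 to 1.54 on control arrays. Krt14 was called higher (1.93, adjusted p = 0.0192 with limma), while Oxtr (-0.41) and Myh11 (-0.028) had negative differences and were not called. Macrophage markers averaged 3.28 to 3.80 on PRH arrays and 3.78 to 4.39 on control arrays. Mrc1 and Lyz2 were called lower, while Adgre1 (0.022) and Csf1r (0.004) had positive differences and were not called. Of the skeletal muscle markers Mylpf was called higher, while Tnnt3 had -0.31 and was not called. Over the 11 lists, 4 markers were called higher and 4 lower, beside 10.6% and 12.9% of named genes. The part of these cell types in the member levels was not tested.

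How many members were called, and in which direction, changed with the scaling of the arrays. With the 75th percentile 71.4% of the 7 member calls were higher, while 13.3% were so with median centring, where 2 members were called higher and 13 lower beside backgrounds of 8.47% and 22.0% of all items and 4.18% and 32.5% of named genes. Quantile normalization gave 4 higher and 6 lower beside 12.0% and 13.5% of items and 8.55% and 18.0% of named genes. Cyclic loess gave 4 and 5 beside 13.0% and 11.5% of items and 9.02% and 15.5% of named genes. Normexp with quantile normalization gave 3 and 8 beside 10.4% and 13.2% of items and 8.04% and 18.5% of named genes. The authors' values gave 3 and 6 beside 10.6% and 12.7% of items and 8.07% and 17.3% of named genes. Median centring shifted the median of all items to -0.18, against 0.29 with the 75th percentile, and the 4 others put it between 0.05 and 0.12. Across the 6 scalings 20 members were called at least once and none in opposite directions. The sign of the difference was the same in all 6 for 33 members, 10 positive and 23 negative, and changed for 18.

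**Figure D5:**
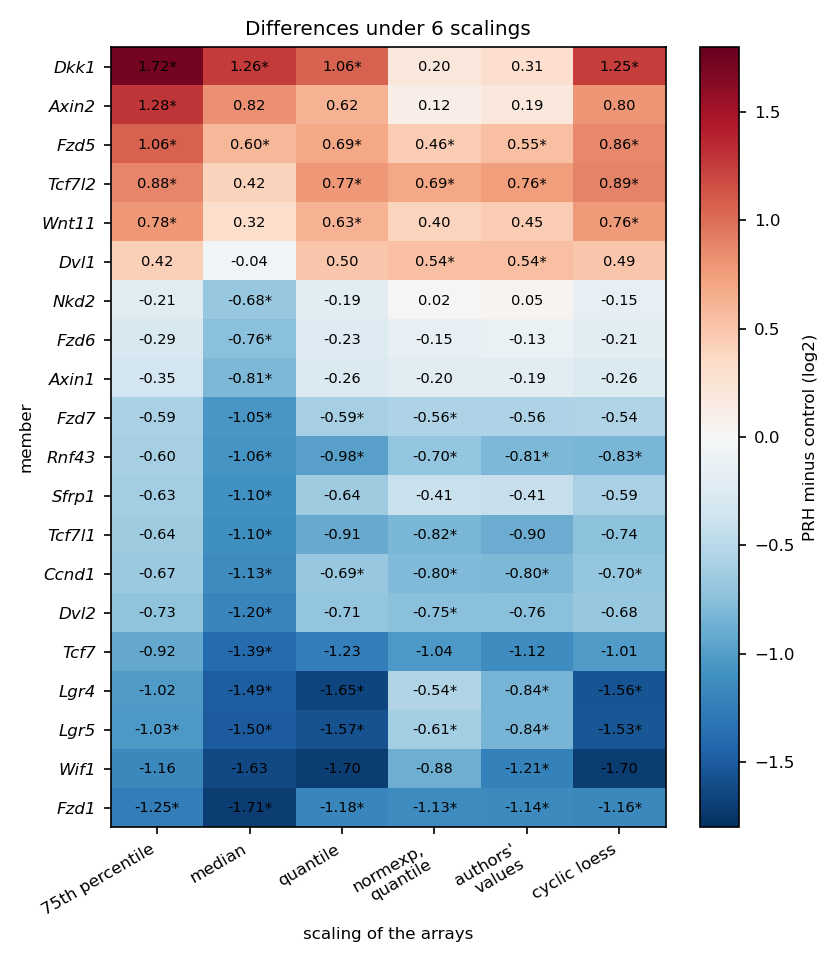
Difference between PRH and control tumours (log2, colour and number) for the 20 members called under at least 1 of 6 scalings of the arrays (columns), with an asterisk for an adjusted p under 0.05. Fzd5 is called higher and Fzd1 and Lgr5 lower in every column, while Axin2 is called in the first column alone.

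Other genes of the pathway, 72 in a list that shares no gene with the members, were read in the same fit. Of 62 tested, 9 were higher and 7 lower beside the same backgrounds of 17.2% and 8.67% of all items, or 10.6% and 12.9% of named genes, 17 did not overlap beside 31.4%, and the median difference was 0.01. The higher ones included 3 ligands, Wnt1 (1.01, adjusted p = 0.00952), Wnt9b (1.09, adjusted p = 0.014) and Wnt16 (1.14, adjusted p = 0.00686). All 3 kept the call under the 6 scalings and in all 8 fits without 1 array. Wnt9b, Wnt16 and Tle4, given below, lay in the same brightness class as Fzd5, with a median difference of 0.50. The class of Wnt1 had -0.14.

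Wnt16 measured -1.64, -1.90, -1.69 and -1.76 in PRH-labelled tumours, against -2.52, -3.02, -3.08 and -2.93 in control tumours. Wnt1 measured 2.19, 1.62, 1.87 and 1.83 in PRH-labelled tumours, against 1.23, 0.61, 0.81 and 0.81 in control tumours. Neither gene's groups overlapped. The rest of the higher genes were the planar polarity gene Vangl2 (0.76), the Apc relative Apc2 (0.65), the Dishevelled-binding Dact3 (1.05), the chromatin remodeller Chd8 (0.46), and the Groucho family members Tle4 (1.18) and Aes, now named Tle5 (0.96), which bind Tcf factors. A second probe of Tle4 was called in the other direction (-1.12, adjusted p = 0.00838), and one of Aes had -0.21. Of these 6, Apc2, Tle4 and Aes were called in all 8 fits without 1 array. Vangl2 was called in 7, the exception being without PRH 5 (adjusted p = 0.0503). Dact3 was called in 2, with adjusted p up to 0.104, and Chd8 in 1, with adjusted p up to 0.111.

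The 7 lower genes included Bcl9, a coactivator that binds β-catenin, and Cthrc1, a secreted glycoprotein that takes part in Wnt signalling. Cthrc1 measured -2.45, -2.13, -2.01 and -1.31 in PRH-labelled tumours, against -0.90, -0.38, 0.32 and -0.74 in control tumours (-1.55, SE 0.34, adjusted p = 0.015). Bcl9 measured -3.99, -4.03, -4.43 and -4.06 in PRH-labelled tumours, against -3.16, -3.01, -3.08 and -3.15 in control tumours (-1.03, SE 0.14, adjusted p = 0.00686). Neither gene's groups overlapped, and both calls held in all 8 fits without 1 array. The others were the glypican Gpc4 (-0.97), the Wnt receptor Ryk (-0.82), the kinase Csnk1a1 (-0.76), the corepressor Tle1 (-0.70) and Tnks (-0.58), an enzyme that marks Axin for degradation. These calls were lost in several fits without 1 array: Tnks was called in 5 of 8, Gpc4 and Tle1 in 2, and Ryk and Csnk1a1 in 1, with adjusted p up to 0.0612 for Tnks, 0.0874 for Gpc4, 0.084 for Tle1, 0.0914 for Ryk and 0.0963 for Csnk1a1. The transcript of β-catenin, Ctnnb1, had a difference of -0.36 and was not called (adjusted p = 0.203). Over the 6 scalings with all 8 arrays, 4 of these genes, Wnt1, Wnt9b, Wnt16 and the brightest probe of Tle4, were called higher in all. Called lower in all were 6, Bcl9, Cthrc1, Gpc4, Ryk, Tnks and the brightest probe of Tle1. Other probes of Tle1 had 0.33 and -0.14 and were not called (adjusted p = 0.711 and 0.623 with limma).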

How the data were processed

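Total RNA of 8 tumours was measured on Agilent 1-colour mouse arrays. The deposited scanner intensities were made with Feature Extraction 10.7.3.1 on a design placed on mm9, per the file headers, while the submitters' processing notes name version 9.1. A table of the authors' normalized intensities was also deposited, and its background correction is not given in the sources used here. Each processed signal was divided by the 75th percentile of its array and put on a log2 scale. Probes well above background on at least 4 of 8 arrays were tested (62 of 66 member probes), spots of a probe were averaged, and the brightest tested probe stood for a gene. Probes were named by accession through a RefSeq table of GRCm38.p6 (25869 of 26392 with an NM accession). The test was two-sided, with lmFit and eBayes of limma 3.58.1 (R 4.3.3) and Benjamini-Hochberg adjustment over 34543 items at a threshold of 0.05, and the code was tested on simulated data. Marker lists were compared by exact permutation over 70 arrangements. Precision is limited by having 4 arrays in each group, and a p-value reflects only the spread among these tumours.

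Members, lists and the rule for named genes were chosen with earlier results of these data known. By that rule, called members, the member with the smallest p of a role in which none was called, and called genes of the list of other pathway genes are named. Values of further members were added after they were seen. The motif form was chosen after other forms had been searched. Deviations from the group mean of same-numbered arrays correlated at 0.203, 0.436, 0.665 and 0.274 for mice 1, 2, 3 and 5, all positive. Correlations of arrays with different numbers are not given here for comparison. The mouse number, which is also a slide row, was therefore used as a block in an alternative fit, while the main fit is unblocked. The alternatives were 5 other scalings, centring on spike-in RNAs (7 probes), 2 other filters, the mean of a gene's probes, the block and leaving out each array. The normexp alternative used median signals with an offset of 50, since the planned mean signal is not a column of the files used here.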

Additional observations from a re-analysis of the deposited data

Results flagged for a closer look

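In 7 of 102 groups of 4 arrays, 1 array stood apart from the other 3 by Dixon's criterion, and chance alone marks about 1 in 20 such groups, or 5.1 here. In PRH-labelled tumours, Wnt7b was 1.05 on PRH 5 (the nearest other array at 1.38), Wnt10b was -3.76 on PRH 3 (nearest -2.61), and Dvl1 was 2.46 on PRH 1 (nearest 2.97). In control tumours, Fzd1 was 2.14 on control 2 (nearest 1.63), and Apc was -2.92 on the same array (nearest -2.54). Control 1 stood apart for Dvl2 at -0.045 (nearest 0.87) and for Ccnd1 at 5.04 (nearest 5.97). Without that array, the adjusted p of Dvl2 was 0.00593 and that of Ccnd1 0.00543 with limma, while neither was called with all 8 arrays. The cause of these departures was not tested.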

How the results depend on the processing

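Of 5 members called higher and 2 lower, Fzd1, Fzd5 and Lgr5 were called under all 6 scalings, and Dkk1, Fzd1, Fzd5 and Tcf7l2 in all 8 fits without 1 array. Members called higher numbered 2 with median centring, 3 with normexp, on the authors' values, with the filter on all 8 arrays and with mean probes, and 3 to 6 without 1 array. Members called lower numbered 13 with median centring, 6 with quantile normalization and on the authors' values, 8 with normexp, 5 with cyclic loess, 4 with the filter on all 8 arrays, and 1 to 5 without 1 array. Centring on the spike-in RNAs called 0 members, 0 other pathway genes and 1 item, which was lower, with limma. In that fit 6 members had an unadjusted p under 0.05, beside 7005 of 34543 items and 2587 of 16377 named genes. The differences stayed about as large (Fzd1 -1.37, Fzd5 0.94, Dkk1 1.59, Lgr5 -1.16). Other pathway genes called lower numbered 19 with median centring (4 higher), 4 without a filter, and 2 to 15 without 1 array. Items called higher numbered 2926 with median centring, 3581 with normexp, 3666 on the authors' values and 9283 in the fit blocked on mouse number. Items called lower numbered 7612 with median centring, 4649 with quantile normalization, 4566 with normexp, and 1536 to 4779 without 1 array. The sign turned for Fzd7 with mean probes (0.061), for Znrf3 with median centring (-0.076), normexp (-0.091) and the authors' values (-0.079), for Dvl1 and Chd8 with median centring (-0.043 and -0.01), and for Nkd2 with normexp (0.023) and the authors' values (0.047). The block added calls of Lrp5, Dvl3 and Rnf43 and removed none of the 7 member calls. Of 28 members called in no setting, 21 changed sign in at least 1 of 18 alternatives. Marker lists at the smallest possible p, unadjusted, numbered 2 with median centring and 1 each without control 1 and without control 5. The causes were not tested. Signal near background limits Dkk1, Axin2, Lgr4, Wif1 and Fzd10.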
